A study of Drosophila melanogaster with 8 samples.

Results

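The baseline difference between a Stat92E mutant line and its wild-type S2R+ background was measured in cells given control media for 1 hour. It rests on 2 libraries of each line, 4 of the 8 libraries in the series, and on the 8126 genes with enough counts to test out of the 13932 in each table. S2R+ is a Drosophila melanogaster line of embryonic origin with traits of plasmatocytes, the macrophages of the fly. The wild-type group is S2R+ with no mutation named, and the mutant group is S2R+ in which STAT92E was knocked out by CRISPR. The other 4 libraries are the same 2 lines given upd ligand for 1 hour, and they serve here as a second measurement of the line difference. The labels do not say whether the mutant line is 1 clone, nor whether replicates were grown separately. The spread behind each p-value is therefore that between libraries and may be technical. A single mutant line was sequenced, and effects of the mutation and other differences between the lines cannot be told apart.

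In the JAK/STAT pathway of flies, secreted Unpaired ligands bind the receptor Domeless, which activates the kinase Hopscotch. Hopscotch phosphorylates STAT92E, the only STAT protein of the fly, which enters the nucleus and activates genes that include its own feedback inhibitor Socs36E. In blood cells the pathway is known for controlling cell fate and the response to wasp eggs, and the fly's circulating macrophages are a source of basement membrane proteins and immune receptors.

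Polyadenylated RNA was sequenced, and levels are given as CPM, the usual depth-corrected count, with library sizes scaled by the TMM method. The wild-type control libraries held 8285533 and 28465332 counts on genes, and the mutant control libraries held 20132421 and 15146225. A floor of 3 counts corresponds to 0.379 and 0.0985 CPM in the wild-type libraries and to 0.143 and 0.183 CPM in the mutant libraries. The mitochondrial genome took 20.2% of counts in wild-type replicate 1 and between 14.0% and 15.1% in the other 3 libraries. A gene was called where the quasi-likelihood test of edgeR gave an adjusted p under 0.05, and log2 differences are mutant minus wild type with their standard error (SE). In bulk RNA, fewer cells of a type and less RNA per cell cannot be told apart.

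Stat92E itself (3R, 20535323 to 20552311) was transcribed in both lines. It stood at 161 and 178 CPM in the wild-type libraries and at 103 and 114 CPM in the mutant libraries. The mutant libraries were both lower, by a log2 difference of -0.65 ± 0.14 (SE, n = 2 libraries a line, adjusted p = 0.0253). With upd the levels were 157 and 160 CPM against 111 and 121 CPM, a difference of -0.45 that was not called (adjusted p = 0.0801). The call in control media was lost whichever of the 4 libraries was left out, with differences between -0.72 and -0.57. Counts over the whole gene do not show whether the remaining transcripts carry the mutation.

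Of the 8126 genes tested, 729 were called between the lines (8.97%), 266 higher in the mutant line (3.27%) and 463 lower (5.7%). Falls were also larger than rises: the median log2 difference was -1.64 over the genes called lower and 1.08 over those called higher, against 0.008 over all genes tested. Among the calls, 151 genes were over 2-fold higher (1.86% of those tested) and 356 over 2-fold lower (4.38%). Fitted differences of over 16-fold were found for 42 genes called higher and 96 called lower, though for genes at 0 counts in both control libraries of a line the fitted size depends on the prior count. Between single libraries of the 2 lines the median absolute log2 difference was 0.331 to 0.4, beside 0.295 between the wild-type replicates and 0.188 between the mutant replicates. With the genes split into 5 equal groups by level, the share called was 6.7% in the group with the lowest levels and between 8.55% and 10.7% in the other 4. The count of calls was 376 when wild-type replicate 1 was left out and 326 when wild-type replicate 2 was. It was 253 when mutant replicate 1 was left out and 390 when mutant replicate 2 was. A core of 213 genes (2.62% of those tested), 62 higher and 151 lower, was called in all 4 of these fits.

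**Figure D1:**
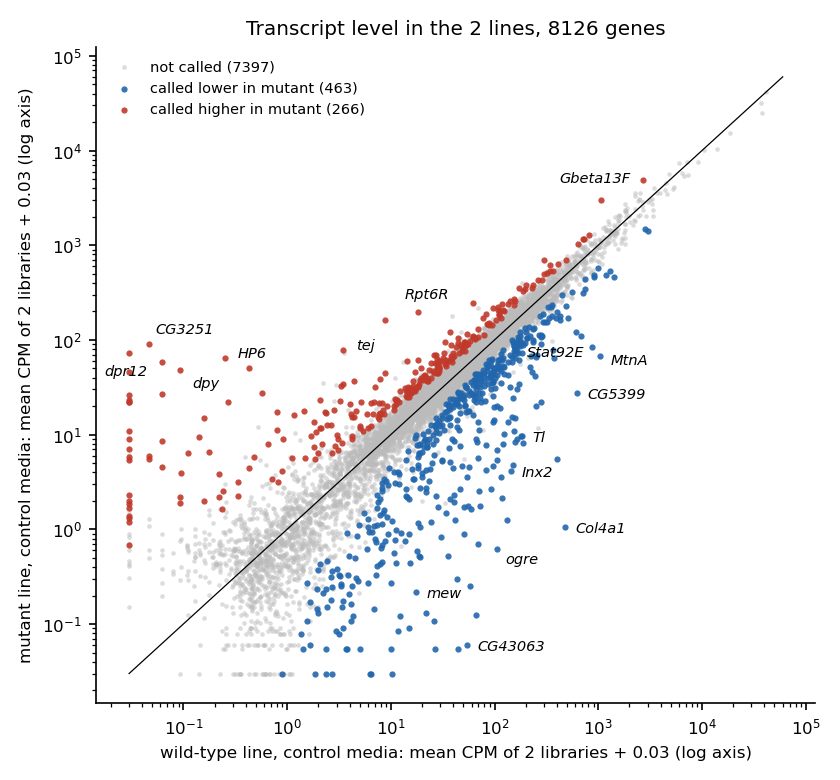
Mean CPM of the 2 mutant control libraries against the mean of the 2 wild-type control libraries for each of the 8126 genes tested, with 0.03 added and both axes logarithmic. The 463 genes called lower (blue) and 266 called higher (red) reach the left and bottom edges, where one line had no or almost no counts, and Stat92E lies close to the line of equal levels.

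Most line differences were also found in the upd libraries, whose levels do not enter the control-media difference. There, 855 genes were called (10.5%), 324 higher (3.99%) and 531 lower (6.53%). Over 2-fold, 2.19% of genes were called higher and 4.85% lower. A total of 604 genes were called in the same direction in both media, which is 82.9% of the calls in control media and 70.6% of those with upd. No gene was called in opposite directions. Of the 729 genes called in control media, 726 had the same sign with upd, and for 724 the upd libraries of the lines did not overlap, as was the case for 53.2% of all genes tested. The 2 measurements are not fully independent, because libraries of a line with the same replicate number deviated together (correlation of deviations 0.48 in wild-type and 0.51 in mutant libraries). Both contrasts also took their spread from the same fit to all 8 libraries, so the control-media calls depend in part on the upd libraries. A fit to the 4 control libraries alone gave 761 calls, of which 648 were shared with the 729. The test of whether the line difference depended on medium called 0 genes by edgeR and 0 by DESeq2, with 88 genes at an unadjusted p under 0.05. That fit does not use the shared deviations within a line. With same-numbered libraries of a line as blocks, a fit added after the data were seen that leaves 2 residual degrees of freedom, 33 genes were called and 744 had an unadjusted p under 0.05. Of the 33, 11 were also called between the lines in control media, as were 8.97% of all genes tested. In that fit the line difference with upd minus that in control media was -1.44 ± 0.15 for Vrp1 (adjusted p = 2.02e-05), -1.34 ± 0.19 for Socs36E (adjusted p = 0.000749) and -0.8 ± 0.14 for ush (adjusted p = 0.00517). The labels do not say what libraries with the same number share.

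**Figure D2:**
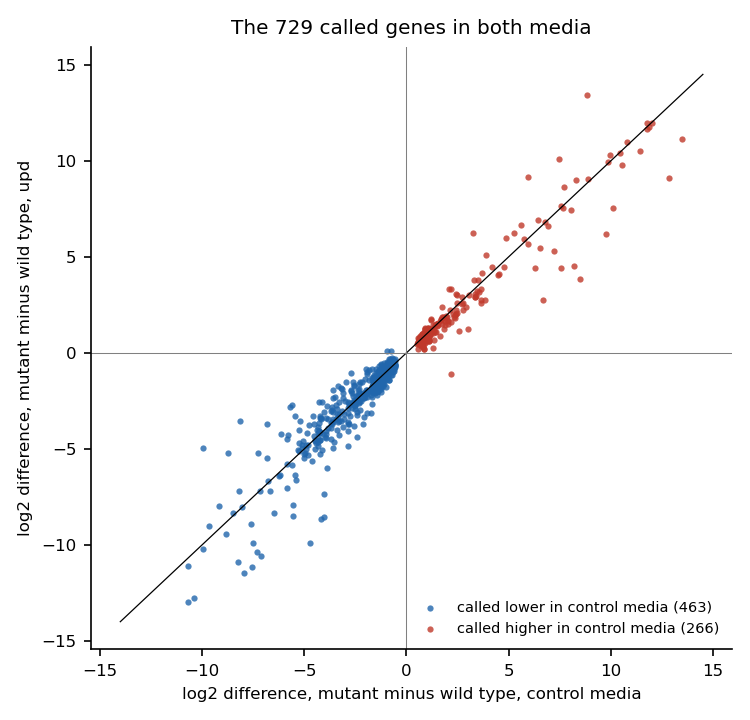
Log2 difference between the lines with upd against the same difference in control media for the 729 genes called in control media. Points lie along the line of equal differences, and 726 of the 729 have the same sign in both media.

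Among the pathway's own genes the mutant line had lower transcript levels of a cytokine, a decoy receptor and the main feedback inhibitor, while the receptor and the kinase were not called. Of the 6 tested genes for ligands, receptors, kinase and STAT, 3 were called lower (Stat92E, upd3 and et) and 0 higher. Of 10 regulators, Socs36E was called lower and 0 were called higher. Of 15 tested genes from a list of known pathway targets, 3 were called lower (Tep2, Socs36E and upd3) and 0 higher, and all 15 lay below zero, with a median of -0.54. Over all genes tested, 5.7% were called lower and 3.27% higher, 50.6% lay above zero and the median was 0.008. The 1 call among the 10 regulators is close to that share. With upd the medians of the 3 groups were -1.24, -0.06 and -0.87.

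The ligand upd3, a cytokine released by blood cells, stood at 27.4 and 12.8 CPM in wild-type and at 2.92 and 4.88 CPM in mutant libraries, a log2 difference of -2.35 ± 0.52 (adjusted p = 0.0261). The related ligand upd2 was at 9.36 and 1.77 CPM against 0.239 and 1.16 CPM, a difference of -2.96 that was not called (adjusted p = 0.0785), or was called only without wild-type replicate 2 (-3.78, adjusted p = 0.0284). The mutant libraries lay below both wild-type libraries for each ligand, and wild-type replicate 1 was the highest for both. No overlap between the lines was found for 56.3% of all genes tested. The third ligand gene, upd1, had 1 count in wild-type replicate 1 and 0 in the other 3 libraries. For et (eye transformer), which encodes a shortened receptor that dampens signalling, the values were 4.68 and 7.09 CPM against 0.765 and 0.427 CPM, a difference of -3.29 ± 0.79 (adjusted p = 0.0353). The receptor gene dome was at 78.4 and 71.2 CPM against 65.8 and 57.3 CPM, a difference of -0.28 (adjusted p = 0.362), and the kinase gene hop at 13.8 and 18.0 CPM against 14.8 and 18.4 CPM, a difference of 0.05 (adjusted p = 0.916). Reads of et overlap those of the antisense gene Zw, and the counting is not stated to use strand. The call of et was lost without any one of the libraries (differences between -3.78 and -2.94). That of upd3 was lost without wild-type replicate 1 (-1.73), mutant replicate 1 (-2.02) or mutant replicate 2 (-2.75).

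Socs36E, the feedback inhibitor that pathway activity induces, stood at 287 and 208 CPM in the wild-type and at 32.4 and 49.9 CPM in the mutant control libraries. The groups were far apart, and the log2 difference was -2.59 ± 0.41 (adjusted p = 0.0059). With upd the wild-type libraries were at 927 and 1010 CPM and the mutant libraries at 39.8 and 98 CPM, a difference of -3.81 (adjusted p = 0.000999). Leaving out mutant replicate 1 gave -2.31 with an adjusted p of 0.0522. The other suppressors of cytokine signalling were not called, Socs44A at 0.16 and Socs16D at -0.15, nor were the phosphatase gene Ptp61F at -0.11 and the repressor gene ken at -0.06.

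Tep2, a secreted thioester protein of the complement type, stood at 54.5 and 65.2 CPM in wild-type and at 0.574 and 2.62 CPM in mutant libraries. Both mutant libraries were close to empty, and the log2 difference of -5.28 ± 0.77 (adjusted p = 0.0042) was called in every fit that left out a library. Its size moved to -4.51 without mutant replicate 1 and to -6.69 without mutant replicate 2. Other listed targets lay lower in the mutant line without a call. The transcription factor gene zfh1 was at 383 and 393 CPM against 275 and 288 CPM (-0.46, adjusted p = 0.0715), the caspase inhibitor gene Diap1 at 310 and 263 CPM against 179 and 213 CPM (-0.54, adjusted p = 0.0827), and the virus-induced gene vir-1 at 843 and 846 CPM against 430 and 625 CPM (-0.68, adjusted p = 0.144). The groups did not overlap for these 3 genes, as was the case for 56.3% of all genes tested. The Turandot stress genes TotA, TotB, TotC and TotX had 0 counts in all 4 libraries and TotM had at most 4, so the list has no reading on that family.

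**Figure D3:**
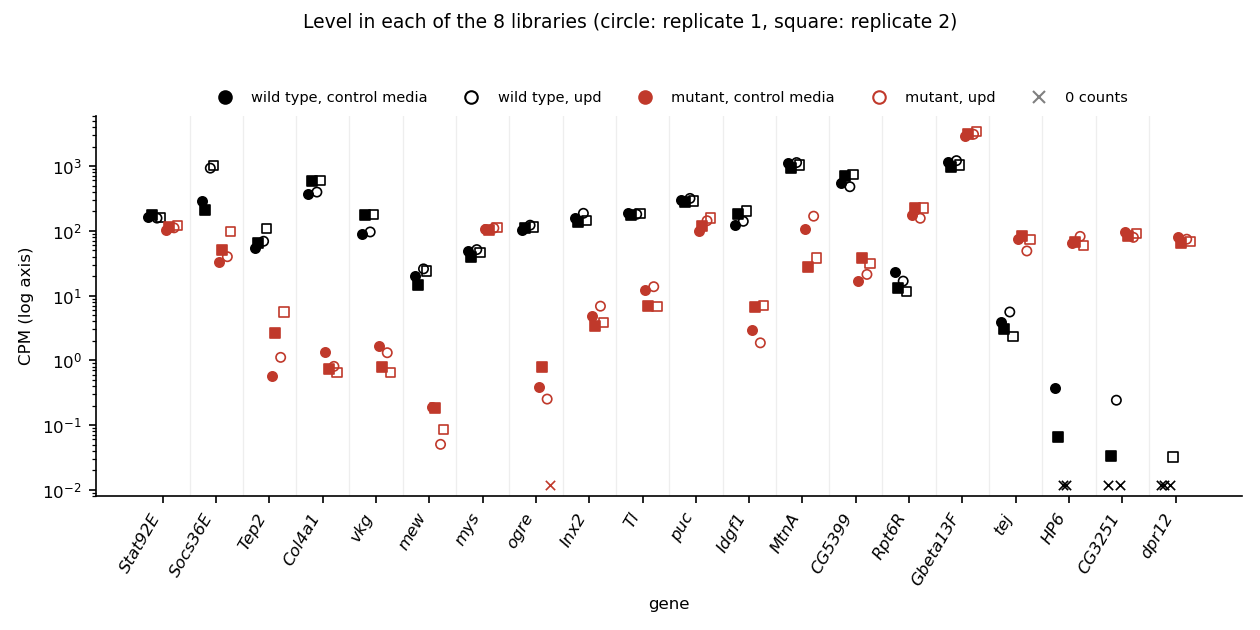
CPM of 20 genes in each of the 8 libraries on a log axis, with black for wild type, red for mutant, filled symbols for control media, open symbols for upd and crosses for 0 counts. Stat92E differs little between the lines, while Col4a1, ogre, dpr12 and CG3251 are close to on or off by line in both media.

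Transcripts of the basement membrane collagen were almost absent from the mutant line. Of 15 tested genes for basement membrane proteins and their assembly, 5 were called lower and 1 higher, with a median of -0.77. The shares over all genes tested were 5.7% and 3.27%. Col4a1 and vkg, which encode the α1 and α2 chains of type IV collagen, are neighbours on 2L (5029609 to 5037279 and 5012144 to 5028191). Col4a1 stood at 376 and 583 CPM in wild-type and at 1.34 and 0.732 CPM in mutant libraries, a log2 difference of -8.81 ± 0.41 (adjusted p = 2.51e-05). The level of vkg was 88.4 and 175 CPM against 1.67 and 0.793 CPM, a difference of -6.7 ± 0.56 (adjusted p = 0.000243). The 2 transcripts were 450-fold and 104-fold lower with no overlap between the lines, as was the case for 56.3% of all genes tested. Both calls held in every fit that left out a library, with vkg at -7.37 without mutant replicate 1. Their upd differences were -9.42 and -7.17.

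Other matrix genes fell by less. Tig, which encodes the integrin ligand Tiggrin, was at 57.8 and 73.6 CPM in wild-type and at 5.69 and 12.3 CPM in mutant libraries, a log2 difference of -2.88 ± 0.39 (adjusted p = 0.00276) that was -3.53 without mutant replicate 2. The laminin α chain genes LanA (-1.1, adjusted p = 0.0418) and wb (-1.96, adjusted p = 0.029) were also called lower. The 1 member called higher was dpy, which encodes Dumpy, a giant protein of the apical matrix rather than of the basement membrane, and which is described with its neighbours below. LanA kept its call without wild-type replicate 1 but lost it in the other 3 fits (-1.26 to -0.78), and wb lost it in all 4 (-2.19 to -1.65).

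An integrin α subunit gene fell and its β partner rose. Of 17 tested genes for integrins and their adhesion complex, 3 were called lower and 1 higher, against 5.7% and 3.27% of all genes tested, and 13 were not called, with a median of -0.17. The α subunit gene mew was at 20.2 and 14.7 CPM in wild-type and at 0.191 and 0.183 CPM in mutant libraries, a log2 difference of -6.48 ± 0.36 (adjusted p = 2.67e-05). The βPS subunit gene mys, the partner of that α subunit, was at 48.8 and 39.4 CPM against 105 and 104 CPM, a difference of 1.25 ± 0.16 (adjusted p = 0.00217). The groups were apart for both, in opposite directions, and both calls held whichever library was left out. Of all genes tested, 56.3% had no overlap between the lines. Talin, which ties integrins to actin and is encoded by rhea, was lower (-1.01, adjusted p = 0.0101), as was the βν subunit gene Itgbn (-3.86, adjusted p = 0.0353). The call of rhea was lost without wild-type replicate 2 (-0.97) or mutant replicate 1 (-0.85). That of Itgbn was lost without either wild-type library (-3.44 and -4.2) or mutant replicate 1 (-2.96), and it was -5.97 without mutant replicate 2.

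Of the 3 innexins that wild-type cells held at over 50 CPM, 2 were close to absent from the mutant line. Innexins form the gap junctions of insects, and 2 of the 5 tested were called lower and 0 higher, against 5.7% and 3.27% of all genes tested. Those genes, ogre (6973620 to 6991318) and Inx2 (6998672 to 7004151), lie close together on X. In ogre the wild-type libraries held 101 and 111 CPM and the mutant libraries 0.383 and 0.793 CPM, a log2 difference of -7.53 ± 0.45 (adjusted p = 3.79e-05). In Inx2 they held 156 and 135 CPM against 4.88 and 3.42 CPM, a difference of -5.12 ± 0.33 (adjusted p = 5.59e-05). Both genes were lower in every mutant library in both media and called in each fit that left out a library. Among all genes tested, 56.3% had no overlap between the lines in control media and 53.2% with upd. The germline innexin gene zpg was not called (0.31, adjusted p = 0.453), with 85.6 and 133 CPM in wild-type and 143 and 128 CPM in mutant libraries. Inx7, which lies between ogre and Inx2, was at 0.506 and 0.394 CPM against 0 counts and was not called (adjusted p = 0.0944).

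Of 16 tested genes for cell polarity and septate junctions, 4 were called lower and 1 higher, against 5.7% and 3.27% of all genes tested, and 11 were not called. The members lay on both sides of zero, 7 above and 9 below. The scaffold gene sdt (stardust) was at 44.3 and 37.2 CPM against 9.09 and 7.81 CPM (-2.26 ± 0.19, adjusted p = 0.000266), and the cell adhesion gene Nrg (neuroglian) at 65.1 and 59.3 CPM against 16.5 and 15.3 CPM (-1.97 ± 0.18, adjusted p = 0.000434). The septate junction gene cora was at 451 and 410 CPM against 188 and 168 CPM (-1.27 ± 0.14, adjusted p = 0.00122). Replicates of a line lay close together for these 3 genes, and none of the calls was lost when a library was left out. The scaffold gene dlg1 (-0.83, adjusted p = 0.0219) was lower and the polarity gene par-6 (0.8, adjusted p = 0.0164) higher. The call of dlg1 was lost in all 4 such fits (-0.93 to -0.73), and that of par-6 was kept without mutant replicate 2 and lost in the other 3 (0.69 to 0.86).

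Plasmatocyte markers were split. Of 12 tested, 5 were called lower (Col4a1, vkg, Glt, Sr-CI and ush) and 0 higher, against 5.7% and 3.27% of all genes tested. The summed level of the list was between 2020 and 3060 CPM in the wild-type and between 897 and 963 CPM in the mutant control libraries. Glt, which encodes the matrix protein glutactin, was at 590 and 1160 CPM against 52.8 and 117 CPM (-3.37 ± 0.6, adjusted p = 0.0104), and Sr-CI, a scavenger receptor for bacteria, at 3.41 and 12.9 CPM against 0.287 and 0.549 CPM (-4.34 ± 0.79, adjusted p = 0.0115). The gene for the transcription cofactor U-shaped, ush, was at 186 and 129 CPM against 79.7 and 79.2 CPM (-0.98 ± 0.21, adjusted p = 0.0235). The markers Pxn, crq and Pvr were not called and stood above 100 CPM in all 4 libraries, and the blood cell GATA factor gene srp was at 32.5 and 46.1 CPM against 30.4 and 38.4 CPM. NimC1, eater and He had at most 5 counts in any of the 4 libraries. The calls of Glt (-2.9) and of Sr-CI (-3.92) were lost without mutant replicate 1, and Glt was -4.05 without mutant replicate 2. Sr-CI was -4.96 without wild-type replicate 1 and lost its call at -3.03 without wild-type replicate 2. That of ush was lost without wild-type replicate 1 (-0.7), mutant replicate 1 (-0.99) or mutant replicate 2 (-0.97).

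Markers of other cell types were mostly not called, with calls in single genes. Summed levels in wild-type and mutant control libraries were 250 to 291 and 207 to 236 CPM for lamellocytes, 10.5 to 10.9 and 13.7 to 15.8 CPM for crystal cells, and 60.1 to 92.3 and 34.2 to 48.3 CPM for neurons. They were 27.2 to 34.8 and 35.1 to 37.3 CPM for muscle, 102 to 109 and 83.7 to 95.5 CPM for fat body, and 202 to 220 and 139 to 153 CPM for glia. Epithelial markers summed to 71.5 to 77.0 and 116 to 132 CPM, ovarian somatic markers to 77.5 to 100 and 101 to 104 CPM, and germline markers to 618 to 703 and 609 to 647 CPM. Among the listed genes, Drip, PPO1, Mhc, Lsp1alpha, Lsp1beta, Fbp1, Fbp2 and gcm had 0 counts in all 4 libraries, and lz, atilla and VGlut had at most 3. Other listed members were present in both lines. The neuron marker elav was between 9.42 and 14.4 CPM, the lamellocyte marker PPO3 between 34.6 and 42.5 CPM and the crystal cell marker PPO2 between 7.08 and 11.1 CPM. Called members were mthl4 (-1.48) of 5 tested lamellocyte markers, Appl (-1.63) of 10 neuron markers, bt (-3.58) of 8 muscle markers, moody (-0.83) of 3 glial markers and ap (0.96) of 6 epithelial markers. The shares over all genes tested were 5.7% lower and 3.27% higher, and lists this short can say little beyond the single genes. Of 6 germline markers, bam was lower (40.8 and 40 against 1.05 and 3.48 CPM, -4.19 ± 0.61, adjusted p = 0.00438) and its partner bgcn higher (0.75, adjusted p = 0.0113). The bam call held without each library (-3.54 without mutant replicate 1, -5.25 without mutant replicate 2), that of bgcn in none of these fits (0.72 to 0.79). The calls of mthl4, Appl and bt were lost in all 4 as well. That of moody was kept only without wild-type replicate 1, and that of ap only without wild-type replicate 1 or mutant replicate 2. The part of other cell types in the line difference was not tested.

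The Toll receptor and both NF-κB factors that act below it were lower in the mutant line. Of 23 tested genes of the Toll and Imd immune pathways, 6 were called lower and 1 higher, against 5.7% and 3.27% of all genes tested. The other 16 were not called, and 11 of the 23 lay above zero, with a median of -0.28. Tl, the Toll receptor gene, was at 190 and 175 CPM in wild-type and at 12.3 and 6.89 CPM in mutant libraries, a log2 difference of -4.24 ± 0.37 (adjusted p = 0.000284) that held without each library. The NF-κB factor gene dl (dorsal) was at 70.2 and 55.8 CPM against 17.7 and 28.1 CPM (-1.46 ± 0.26, adjusted p = 0.00976), and its neighbour Dif at 26.9 and 31.6 CPM against 10.2 and 10.7 CPM (-1.48 ± 0.27, adjusted p = 0.012). Both factor genes lay lower in both mutant libraries, while 56.3% of all genes tested had no overlap between the lines in either direction. Peptidoglycan receptor genes were called in both directions, with PGRP-SA (-0.88), PGRP-LA (-3.02) and PGRP-LC (-4.2) lower and PGRP-LE (2.19) higher. Of 14 antimicrobial peptide genes only 3 had enough counts, and CecC, which encodes a cecropin, was lower at 46.4 and 32.0 CPM against 8.61 and 9.51 CPM (-2.1 ± 0.24, adjusted p = 0.00131). CecC kept its call in each fit without a library. The call of dl was lost without mutant replicate 1 (-1.16) and that of Dif in all but the fit without wild-type replicate 1 (-1.51 to -1.36). Those of PGRP-SA were lost without either mutant library (-0.85 and -0.89), of PGRP-LE without wild-type replicate 1 (1.89) or mutant replicate 2 (1.96), and of PGRP-LA in all 4 fits (-3.46 to -2.64). PGRP-LC kept it only without wild-type replicate 1 (-4.56 to -3.55 in the other 3).

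The JNK stress kinase list had 3 of 14 tested members called lower, against 5.7% of all genes tested, and 0 higher, and 1 of the 3 calls held in every fit without a library. The gene for the JNK phosphatase Puckered, puc, which JNK activity induces, was at 294 and 277 CPM against 98.8 and 120 CPM (-1.39 ± 0.16, adjusted p = 0.00122), a call kept without each library. The transcription factor gene Ets21C (-1.52, adjusted p = 0.0109) and the TNF ligand gene egr (-2.33, adjusted p = 0.0439) were the others. Ets21C lost its call without wild-type replicate 2 or mutant replicate 1 (-1.37 in both). The egr call was kept only without mutant replicate 2 (-3.32) and was lost in the other 3 fits (-2.46 to -1.74).

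Single genes of other signalling pathways fell clearly, while most of each pathway was not called. For comparison, 5.7% of all genes tested were called lower and 3.27% higher, and lists with 1 call lie close to that share. In EGFR and ERK signalling 1 of 15 was called, kek1, a feedback inhibitor of the receptor, at 262 and 213 CPM against 90.1 and 100 CPM (-1.32 ± 0.17, adjusted p = 0.002). In BMP and activin signalling 3 of 12 were called lower, among them the ligand gene daw at 125 and 192 CPM against 20 and 9.64 CPM (-3.42 ± 0.45, adjusted p = 0.00239) and the co-repressor gene shn at 76.9 and 95.6 CPM against 31.8 and 36.4 CPM (-1.34 ± 0.17, adjusted p = 0.00192). The mutant libraries were the lower ones throughout, and these 3 calls held without each library, with daw at -4.04 without mutant replicate 1. In Notch signalling 1 of 12 was called, the target E(spl)m3-HLH, at 12.3 and 11.4 CPM against 2.58 and 3.35 CPM (-2.0 ± 0.28, adjusted p = 0.00352). The Wingless receptor gene fz, which sets S2R+ apart from other S2 cells, was at 13.7 and 10.3 CPM against 1.91 and 5.43 CPM and was not called (adjusted p = 0.156). In the branched actin machinery 1 of 16 was called, the verprolin gene Vrp1, at 65.4 and 81.1 CPM against 21.4 and 23.0 CPM (-1.73 ± 0.2, adjusted p = 0.00148). The Wingless list had 1 of 13 and the ecdysone list 1 of 14 called lower, and the insulin and TOR list 2 of 20 called lower and 1 higher. No member was called in the Hedgehog (9 tested), Hippo (13), apoptosis (12), cell cycle (22), DNA replication (17), dosage compensation (6) and heparan sulphate proteoglycan (12) lists.

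The chitinase-like imaginal disc growth factors, secreted by blood cells and fat body, all differed between the lines. Of 5 tested, 4 were called lower and 1 higher, against 5.7% and 3.27% of all genes tested. Idgf1, Idgf2 and Idgf3 lie in a row on 2L (16445278 to 16455194). Idgf1 was at 121 and 180 CPM against 2.96 and 6.59 CPM (-5.0 ± 0.6, adjusted p = 0.0018), Idgf2 at 80.5 and 129 CPM against 3.83 and 6.83 CPM (-4.31 ± 0.4, adjusted p = 0.000443), and Idgf3 at 156 and 297 CPM against 64.5 and 70.3 CPM (-1.75 ± 0.36, adjusted p = 0.0195). The fall was thus deepest in the first 2 genes of the row. On 2R, Idgf6 was lower (-1.62, adjusted p = 0.0449), while Idgf5 was higher at 2.66 and 5.51 CPM against 15.8 and 17.1 CPM (1.94 ± 0.37, adjusted p = 0.0132). Members of this family are similar in sequence, and how reads matching several of them were counted is not given. The first 2 genes kept their calls without each library (Idgf1 at -5.66 without mutant replicate 2). Idgf3 lost its call without wild-type replicate 2 (-1.21) or either mutant library (-1.69 and -1.81), as did Idgf6 (-1.03, -1.6 and -1.63). Idgf5 lost it without wild-type replicate 1 (1.57) or either mutant library (2.0 and 1.89), and was 2.63 without wild-type replicate 2.

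Metallothioneins, small proteins that bind copper, zinc and cadmium, had 4 of 6 tested members called lower and 0 higher, and 3 of the 4 are neighbours of Stat92E. The shares over all genes tested were 5.7% lower and 3.27% higher. The summed level of the family was 1330 and 1200 CPM in wild-type and 153 and 50.5 CPM in mutant libraries. MtnA, on 3R far from Stat92E, was at 1130 and 935 CPM against 107 and 27.7 CPM (-3.93 ± 0.77, adjusted p = 0.0153). MtnB, MtnE and MtnD are the tested genes that precede Stat92E on 3R, from 20503102 to 20535301, and the last ends just before Stat92E starts. MtnD was at 161 and 214 CPM against 14.4 and 1.83 CPM (-4.5 ± 0.87, adjusted p = 0.0148) and MtnE at 14.9 and 23.2 CPM against 0.909 and 0.061 CPM (-5.2 ± 0.81, adjusted p = 0.0058). MtnB was at 3.29 and 4.1 CPM against 0.0478 and 0 CPM, and 1 count in the mutant libraries gives a ratio of 147 (95% interval 26.0 to 5840, counting error only). Mutant replicate 2 was the lowest library for all 4 genes. Without mutant replicate 1 the differences were -5.21, -6.67 and -8.16 for MtnA, MtnD and MtnE, and without mutant replicate 2 they were -3.27, -3.69 and -4.39. MtnA lost its call in the latter case and MtnD without wild-type replicate 2 (-4.27). The ratio of MtnB was 82.3 without mutant replicate 2.

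Among genes that rose, the proteasome stood out as a group. All 34 tested members lay above zero, 6 were called higher, against 3.27% of all genes tested, and 0 lower, with a median of 0.46. The summed level of the family was 6200 and 7080 CPM in wild-type and 9130 and 9490 CPM in mutant libraries. Rpt6R, a second gene for the ATPase subunit Rpt6, was at 23.3 and 12.9 CPM against 173 and 224 CPM (3.49 ± 0.34, adjusted p = 0.000587), and held without each library. The base ATPase genes Rpt5 and Rpt2 were at 63.2 and 92.3 CPM against 176 and 164 CPM (1.12 ± 0.19, adjusted p = 0.00902) and at 149 and 198 CPM against 327 and 380 CPM (1.03 ± 0.21, adjusted p = 0.0181). Both mutant libraries were above both wild-type libraries for each, while 56.3% of all genes tested had no overlap between the lines in either direction. The lid and receptor genes Rpn9 (0.94), Rpn10 (0.79) and the catalytic subunit gene Prosbeta1 (0.67) were the other calls. Rpn9, Rpt5 and Rpt2 lie within or close to a raised stretch of 3R (23760737 to 23932728). In this stretch, picked by its median, 20 of 21 neighbouring genes were above zero. Rpn9, Rpn10 and Prosbeta1 lost their calls in all 4 fits without a library (0.63 to 1.12). Rpt5 lost it without mutant replicate 1 (1.07) and Rpt2 in all but the fit without wild-type replicate 2 (0.83 to 1.13). With upd, 5 members were called higher and the median was 0.37.

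Housekeeping families were close to equal. The shares to compare are the 3.27% called higher and 5.7% called lower over all genes tested. Of 84 cytosolic ribosomal protein genes 1 was called higher and 1 lower, with a median of -0.01, and of 71 mitochondrial ribosomal protein genes 2 were called higher and 0 lower, with a median of 0.05. The 13 mitochondrially encoded transcripts had a median of -0.42 with 0 calls, but their sum was 212000 CPM in wild-type replicate 1 and between 130000 and 145000 CPM in the other 3 libraries. Without that library their median was -0.08, and with upd it was 0.17. Of 64 nuclear respiratory chain genes 3 were called lower, with the complex I subunit gene ND-AGGG at 39.6 and 32.8 CPM against 7.65 and 6.89 CPM (-2.31 ± 0.25, adjusted p = 0.000945). Of 12 glycolysis genes Eno was called lower (-0.76), and its call was lost in all 4 fits without a library (-0.92 to -0.61). Cytochrome P450 genes (28 tested, 2 higher and 4 lower) and glutathione S-transferase genes (26 tested, 1 higher and 2 lower) were called in both directions.

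**Figure D4:**
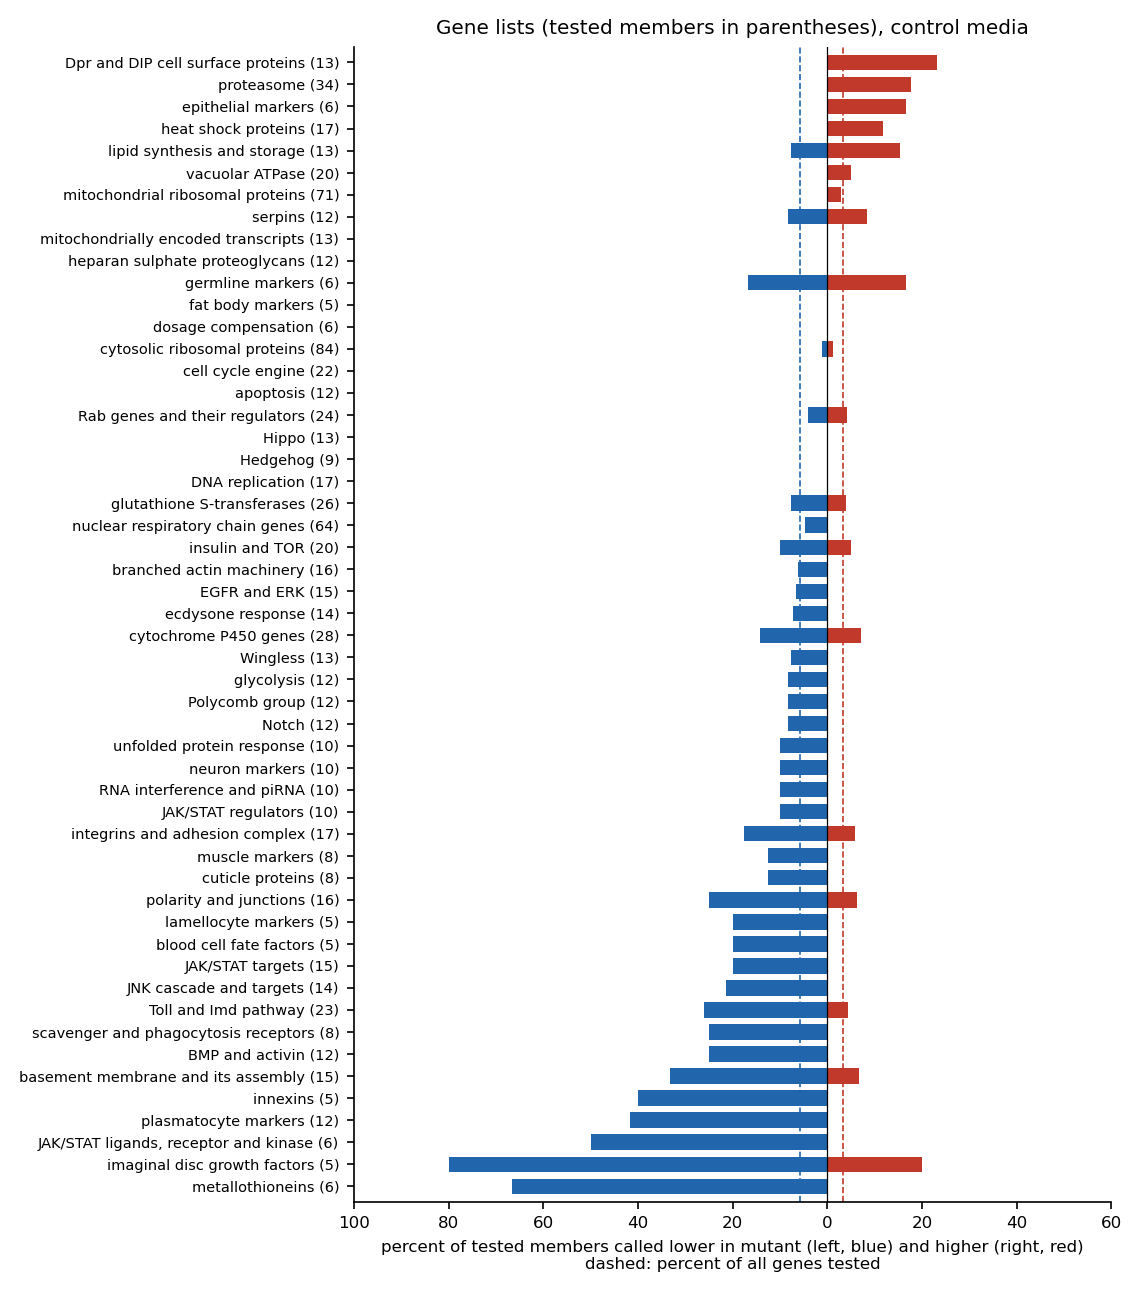
Percent of tested members called lower (blue, left) and higher (red, right) in the mutant line, for each list with at least 5 tested members, with dashed lines at the 5.7% and 3.27% of all genes tested. Metallothioneins, imaginal disc growth factors and plasmatocyte markers reach far to the left. The proteasome has calls on the right alone, as do the Dpr and DIP cell surface proteins, heat shock proteins and some other lists.

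Judged by RPKM, which corrects for length, the called genes include some of the most abundant messages of these cells. Gbeta13F, which encodes the β subunit of heterotrimeric G proteins, rose from a mean of 177 to 540 RPKM, with 1170 and 952 CPM against 2910 and 3140 CPM (1.52 ± 0.18, adjusted p = 0.00161). The β-tubulin gene betaTub56D (1430 to 2710 RPKM), the HP1a gene Su(var)205 (333 to 539 RPKM) and the histone variant gene His2Av (231 to 400 RPKM) were called higher by less than 2-fold. CG1092 fell from 720 to 305 RPKM, CG5399 from 364 to 17.1 RPKM and the calcium-binding protein gene Alg-2 from 424 to 90.0 RPKM. The values of CG5399 were 539 and 703 CPM against 17.0 and 38.4 CPM (-4.49 ± 0.43, adjusted p = 0.000539). These genes were picked by their level among the calls. Of these, Gbeta13F, CG1092, Alg-2 and CG5399 were called without each library (Alg-2 at -2.94 and CG5399 at -5.18 without mutant replicate 2), while betaTub56D, Su(var)205 and His2Av lost their calls in all 4 fits.

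A set of genes was transcribed in the mutant line and not, or hardly, in the wild-type line. Of the 266 genes called higher, 19 had 0 counts in both wild-type control libraries and 12 of them 0 counts in all 4 wild-type libraries. dpr12, which encodes a cell surface protein of the immunoglobulin family known from neurons, had 0 counts in both wild-type libraries and stood at 80.4 and 65.7 CPM in the mutant libraries. That is at least 946-fold higher, taking 3 counts over the wild-type libraries as the floor, and at least 195-fold without wild-type replicate 2. The tetraspanin gene Tsp29Fb (32.2 and 19.6 CPM, at least 341-fold, 70.3-fold without wild-type replicate 2) and the X-linked testis-type gene betaNACtes6 (19.7 and 24 CPM, at least 276-fold, 56.9-fold without that library) had 0 wild-type counts too. betaNACtes6 belongs to a cluster of similar copies, among which reads may have been divided. CG3251 had 1 count in the wild-type libraries and 96.4 and 83.1 CPM in the mutant libraries, a ratio of 3470 (95% interval 623 to 137000). Further genes with 0 wild-type counts were CG11929 (49.6 and 42.5 CPM), Elba3 (17.0 and 29.7 CPM), CG12782 (19.8 and 24.1 CPM), CG7881 (13.1 and 8.84 CPM) and the odorant receptor gene Or42b (9.66 and 8.11 CPM). The 9 genes above kept their calls without each library. Of 13 tested genes of the Dpr and DIP surface protein families, to which dpr12 belongs, 3 were called higher, against 3.27% of all genes tested, and 0 lower. The calls of dpr20 (1.04) and of dpr16, which had 0 wild-type counts, were less stable than that of dpr12. That of dpr20 was lost in all 4 fits without a library (0.97 to 1.12), and that of dpr16 was kept only without mutant replicate 2.

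The reverse set was as distinct. Of the 463 genes called lower, 7 had 0 counts in both mutant control libraries, and 49 fell from at least 5 CPM on average to under 1 CPM, while 31 genes rose across the same limits. CG43063 was at 69.7 and 39.0 CPM in wild-type libraries and at 0 and 0.061 CPM in mutant libraries, a ratio of 1690 (95% interval 303 to 66900). The translation initiation factor gene eIF4B was at 30.8 and 22.6 CPM against 0.0478 and 0 CPM, a ratio of 908 (163 to 35900). Kank, named for its ankyrin repeats, was at 8.6 and 11.8 CPM against 0 counts, at least 138-fold lower, which was at least 60.7-fold without mutant replicate 1 and 77.4-fold without mutant replicate 2. CG42402 was at 57.3 and 59.7 CPM against 0.143 and 0.305 CPM (-8.04 ± 0.28, adjusted p = 5.78e-06), the lowest adjusted p of the comparison. The calmodulin-binding gene igl (7.33 and 12.6 against 0.0478 and 0 CPM) and the enzyme-like gene AhcyL2 (13.7 and 16.2 against 0 and 0.122 CPM) also came close to 0. All 6 calls held without each library. The ratio of CG43063 was 2600 without wild-type replicate 2 and 743 without mutant replicate 1, and that of eIF4B was 509 without mutant replicate 2.

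Called genes clustered along the chromosomes. Of 265 genes called higher on the chromosome arms, 77 (29.1%) had an adjacent gene called higher, as did 6.23% of all genes tested on the arms. Of 454 called lower, 119 (26.2%) had an adjacent gene called lower, as did 10.6% of all. The running median of the log2 difference over 21 neighbouring genes passed 0.5 in size in 322 of 7936 windows (4.06%) in control media and in 279 with upd. The same median of the difference between replicates passed it in 0 windows for 3 of the 4 groups and in 2 for the mutant libraries with upd. Per arm, the median log2 difference was between 0.02 and 0.04 on X, 2R, 3L and 3R, -0.12 on 2L and -0.14 on chromosome 4.

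The most raised window lies on X from 15704125 to 15788288 (Hap40 to mRpS30). In it 20 of 21 genes were above zero and 12 were called higher, with a median of 0.94 in control media and 0.75 with upd. It includes CCT6, a subunit gene of the TCP-1 chaperonin, at 271 and 333 CPM against 651 and 759 CPM (1.22 ± 0.18, adjusted p = 0.00441), and Arp6, an actin-related nuclear protein gene, at 30.8 and 34.7 CPM against 76.7 and 69.7 CPM (1.15 ± 0.16, adjusted p = 0.00359). PGRP-LE and Gbeta13F lie shortly beyond its end, at 15801153 and 15860115. A second raised window on X (2331493 to 2633672, median 0.91), with 13 of 21 genes above zero and 10 called higher, includes the kinesin gene Klp3A at 32.7 and 34.6 CPM against 100 and 90.1 CPM (1.5 ± 0.16, adjusted p = 0.00104) and the kinetochore gene Zw10 (1.72, adjusted p = 0.00413). These 4 calls held without each library. Both windows kept medians between 0.82 and 1.01 in the fits without a library. Windows were picked by their median, so a majority of genes above zero follows from that choice. Over all genes tested, 3.27% were called higher and 5.7% lower.

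The most lowered window lies on 2L from 7223328 to 7732670 (Ndae1 to CG13796), where 20 of 21 genes were below zero and 5 were called lower, with a median of -1.47 in control media and -1.19 with upd. Tep2 lies in it. On X, a window from 21517434 to 23013409 (median -0.91, 9 called lower) and one from 8129812 to 8273806 (median -0.83, 7 called lower), which holds sdt, were also lowered. The window at the base of 3R (3461351 to 4304604), which holds Alg-2, CG42402 and CG1092, had a median of -0.8 in control media and -0.4 with upd. Its control median was -0.43 with wild-type replicate 1 left out and -0.34 with mutant replicate 1 left out. The lowered windows were also picked by their median, so a majority of genes below zero follows from that choice. Of all genes tested, 5.7% were called lower. Over a longer stretch, 457 of the 554 tested genes (82.5%) in the first 8 megabases of 2L were below zero, with a median of -0.32 in both media. The other 857 genes of that arm had a median of 0.07, with 43.8% below zero. Within the stretch 58 genes were called lower (10.5%) and 10 higher, against 5.7% and 3.27% of all genes tested. The raised run from dpy to dcma, described below, lies within it too. The boundary was placed after the values were seen. Col4a1, vkg, Tig, Sr-CI, ush, Ets21C and daw lie within the lowered stretch. They were named for low p-values and all were called lower, so falls beyond its median follow from that choice. DNA copy number was not measured, and its part in these stretches was not tested.

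**Figure D5:**
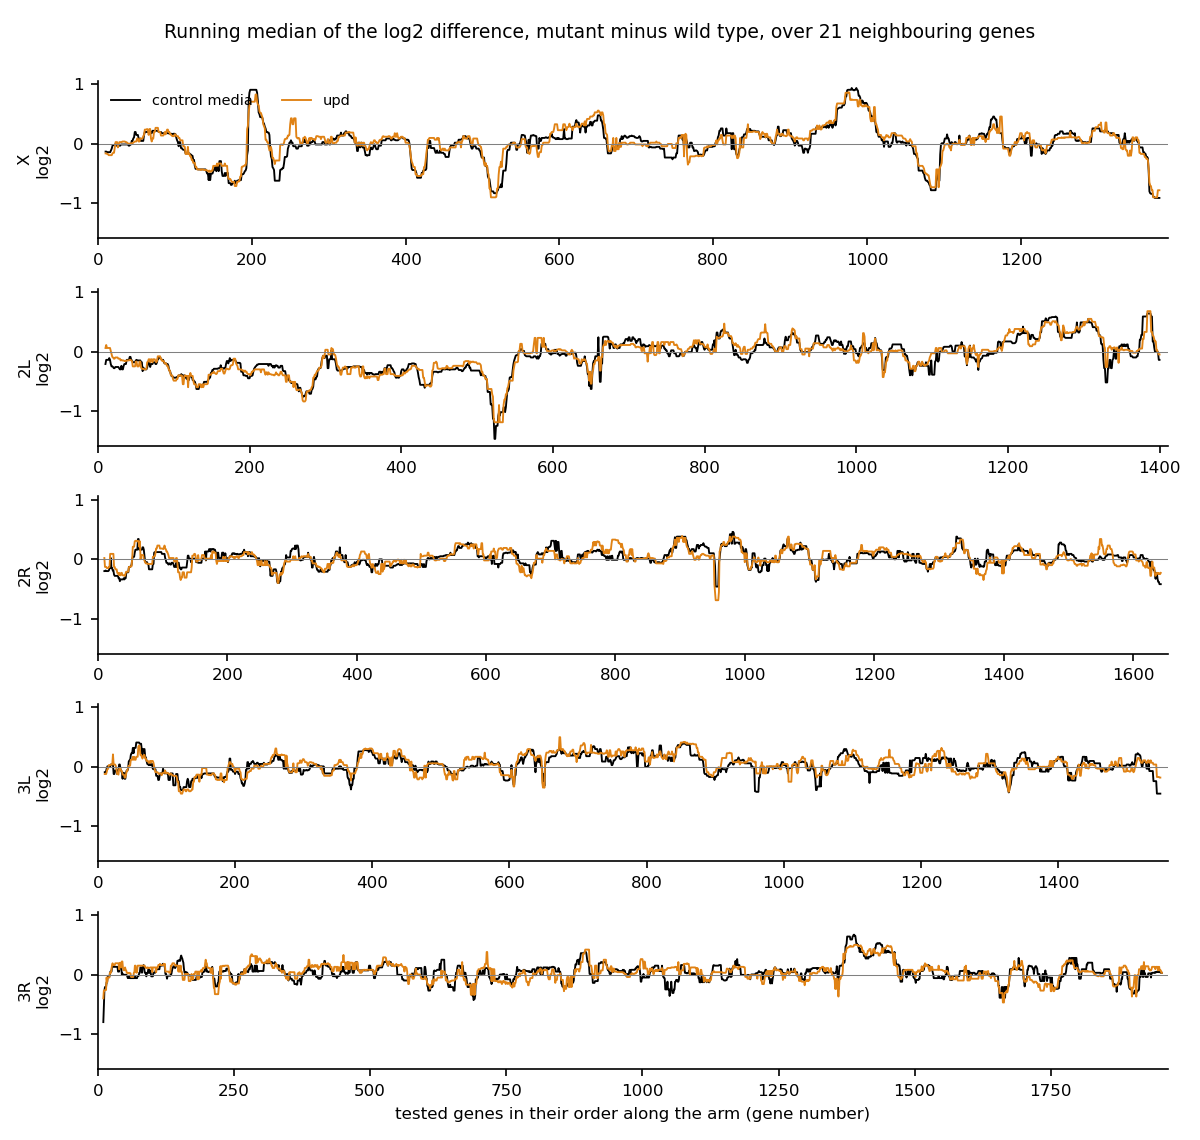
Running median over 21 neighbouring tested genes of the log2 difference, mutant minus wild type, against gene order along the 5 large chromosome arms, in control media (black) and with upd (orange). The curves of both media follow each other through the raised windows on X, the lowered window on 2L and the long stretch of negative values at the start of 2L.

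Some runs of adjacent genes were called together. On 2L from 4477462 to 4722465, 6 consecutive tested genes, dpy, HP6, CG11929, Elba3, CG3251 and dcma, were all called higher, and all 6 with upd. dpy had 1 count over the wild-type libraries and stood at 51.3 and 45.6 CPM in the mutant libraries, a ratio of 1870 (95% interval 336 to 74000) that was 386 without wild-type replicate 2. HP6, a gene of the heterochromatin protein 1 family that lies within dpy, was at 0.379 and 0.0657 CPM against 63.8 and 66.1 CPM (8.84 ± 0.47, adjusted p = 5.21e-05), with 9.82 without wild-type replicate 1 and 7.4 without wild-type replicate 2. Reads of dpy and HP6 may have been counted for either gene. On 2R from 5791441 to 5931363, Or42a, Or42b, dpr12 and CG43366 were called higher together. Or42a, an odorant receptor gene, was at 0.126 and 0.131 CPM against 16 and 14.2 CPM (6.79 ± 0.51, adjusted p = 0.000117). On 2R from 14270729 to 14302353, conv, Ih and tej, all detected in the wild-type line at 1.64 to 3.92 CPM, rose together, with the piRNA pathway gene tej at 3.92 and 3.02 CPM against 74.2 and 82.9 CPM (4.54 ± 0.4, adjusted p = 0.000287). The calls of Or42a and tej held without each library. Opposite runs include MtnB, MtnE, MtnD and Stat92E on 3R, CG5888 with the first 3 Idgf genes on 2L, and otu, CG33181 and Nrg on X (8485008 to 8555170). In the last run otu, a gene needed in the female germline, was at 13.0 and 8.47 CPM against 0.813 and 0.244 CPM (-4.27 ± 0.51, adjusted p = 0.00176), with -5.41 without mutant replicate 1.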

How the data were processed

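Each of the 8 libraries has a table of 13932 genes with whole-number read counts, gene lengths and RPKM, all deposited by the authors. The counts are raw counts per gene and the RPKM values are the authors' own, scaled by gene length and depth, per the file headers. Per the submitters' processing notes, Trimmomatic 0.36 and STAR 2.5.2b were used with genome build dm6; no source used here gives the program that counted reads, its strand setting or the annotation, so genes that overlap, lie antisense or share near-identical copies are uncertain. Of the gene IDs, 13852 matched a symbol and coordinates in the reference table and 80 did not.

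Counts were fitted with edgeR 4.0.16 in R 4.3.3: TMM scaling, filterByExpr, 4 group means over all 8 libraries (4 residual degrees of freedom, shared by all contrasts), the two-sided quasi-likelihood test and Benjamini-Hochberg adjustment over the 8126 genes that passed the filter. The filter left out 5806 genes, 2709 of them with 0 counts in all 8 libraries, and no group mean among those left out was above 1.07 CPM. The typical biological coefficient of variation was 17.8% (median over genes). Each SE is the absolute log2 difference divided by the square root of the test's F statistic. It thus rests on the spread over all 8 libraries rather than on the 2 libraries of each line alone. DESeq2 1.42.0, limma 3.58.1 on log2(RPKM + 1), other filters and scalings, a 2-fold threshold, thinning and leaving out each library served as alternatives. A fit that leaves out 1 library leaves 1 in that group, which is then assumed to vary like the other groups. Fold bounds took 3 counts over the group as the floor, and ratios with 1 to 3 counts carry exact 95% intervals, which cover counting error only, since reads carried no molecular identifiers.

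The comparison and its gene lists were chosen with earlier results of these data known. Genes named are Stat92E and the JAK/STAT lists, the 15 largest differences in each direction at a mean of at least 5 CPM, up to 4 members of each list by lowest p, and genes of the most shifted windows. Genes of runs of called neighbours, genes picked from the 12 most abundant calls in each direction, and LanA, wb, Dif, PGRP-LC, PGRP-LA, dlg1, Rpn10, Prosbeta1, Pxn and elav were added after their values were seen. So were PPO3, CG15673, RpL36A and mt:ND3. Lists share members. Replicate numbers did not pair the lines (correlation of deviations -0.05 between the wild-type and mutant control libraries).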

Additional observations from a re-analysis of the deposited data

Results flagged for a closer look

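Ser, which encodes the Notch ligand Serrate, had line differences of opposite sign in the 2 media, a log2 difference of -1.07 in control media and 1.43 with upd. Its control levels were low, at 0.759 and 1.81 CPM in wild-type and 0.717 and 0.549 CPM in mutant libraries. The floor of 3 counts was at 0.379 and 0.0985 CPM in those wild-type libraries and at 0.143 and 0.183 CPM in those mutant libraries. The unadjusted p of the interaction in edgeR's quasi-likelihood test was 0.0344 and the adjusted p was 1.0, so the difference did not pass the correction. Ser was not alone in changing sign. CG15673, called higher in control media at 2.2, was at -1.11 with upd. In the fit with same-numbered libraries of a line as blocks, its change was -3.33 ± 0.58 (adjusted p = 0.00517). Its wild-type control levels were low, at 1.14 and 0.427 CPM.

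With same-numbered libraries of a line as blocks, 33 genes were called for a line difference that depended on medium. Among them were 6 of the genes named by the rules above. The upd difference minus the control difference was -1.44 for Vrp1 (adjusted p = 2.02e-05), -1.34 for Socs36E (adjusted p = 0.000749) and -0.8 for ush (adjusted p = 0.00517). It was -0.84 for the filamin gene cher (adjusted p = 0.0456), 0.88 for the TOR pathway gene PRAS40 (adjusted p = 0.0286) and 0.72 for the mitochondrial transcript mt:ATPase8 (adjusted p = 0.0431). The 33 also include the ribosomal protein gene RpL36A (0.81, adjusted p = 0.00517) and the mitochondrial transcript mt:ND3 (0.85, adjusted p = 0.034). The blocks were added once the values were known, and without them edgeR called none of the 6.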

How the results depend on the processing

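The 729 genes called between lines in control media became 1294 without a filter on low counts, 205 when tested against a 2-fold change, 1084 with DESeq2 and 1247 with the replicate block. The 266 genes called higher in the mutant line in control media became 487, 59, 401 and 528 under these settings. The 463 genes called lower in the mutant line in control media became 807 without the filter, 146 against a 2-fold change and 719 with the block. The block kept all 729 calls, although replicate numbers did not pair the lines and correlated only between media of a line. Leaving out 1 library gave 253 to 390 calls, 80 to 110 higher and 173 to 280 lower. The 855 genes called between lines with upd became 1429 without the filter, 1386 with the replicate block and 382 to 636 without 1 library. The test of the difference between media called 4 genes without the filter, 33 with the replicate block within each line (added after the data were seen) and 0 in the fit with no block. Other settings gave 566 calls with limma on RPKM, 625 with a mean of at least 5 CPM, 731 with DESeq2 size factors, 738 after thinning to the smallest library and 761 from the 4 control libraries alone. No gene called in both the reported fit and one of these settings changed direction. The median over genes of the change in log2 difference was -0.003 with DESeq2 size factors. It was 0.086 with limma on log2(RPKM + 1), which differs in more than the scaling. Of 199 named genes that were called, between 89 and 118 kept the call in each fit without 1 library, 141 with limma and 69 against a 2-fold change; the cause was not tested. Windows of 11 genes gave the most raised stretches at the 2L run of dpy and the 2R run of dpr12 (medians 8.27 and 6.7). The most lowered of them lay on X from 16653220 to 16783434 (Nemp to if, median -1.86). The lowered 2L window (7430530 to 7732670) came second at -1.84. With 2 libraries a group and wild-type replicate 1 the shallowest, genes near the floor of 0.379 CPM in that library are limited by depth. The promoter motif count was not run.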
